A study of Mus musculus with 9 samples.

Results

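In the muscularis externa (ME) of mice with postoperative ileus, 39 transcripts of 37 genes had a lower group mean than the control both 3 h and 24 h after intestinal manipulation (IM). They were chosen from the 502 transcripts of the authors' deposited table of changed genes by a single rule on the measured values, namely an IM3h mean and an IM24h mean that both lay below the Control mean. A total of 45 transcripts met it, and 6 of these were left out by name. The set holds 3 receptor genes for noradrenaline, neurotensin and thromboxane, the genes of the diacylglycerol kinase Dgkb and of both chimaerins, the ligand gene Wnt5a, 9 genes of transcription and chromatin and a mixed remainder. Of the 39 transcripts, 19 had their lowest mean at 3 h and 20 had it at 24 h, and the receptor genes stood on the first side and the diacylglycerol genes on the second.

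The ME is the muscle coat of the bowel wall, with the myenteric ganglia between its layers, and postoperative ileus is the transient loss of motility that follows abdominal surgery. All mice were BL6, aged 8 to 12 weeks, and IM means that the small bowel was lifted out of the abdomen and rolled with moist cotton swabs. The 9 libraries formed 3 groups of 3, Control, IM3h and IM24h, made with a QuantSeq kit that reads the 3' end of polyadenylated RNA. The labels call the Control mice sham operated while the table headers and the study call them naïve, which was not resolved here, so an effect of opening the abdomen and one of IM cannot be told apart if the mice were naïve. Nothing in the labels ties a library to 1 mouse. The 3 IM3h libraries are numbered in a series of their own, apart from the other 6, and what this series adds to a difference at 3 h cannot be told apart from IM.

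Every level given is the authors' mean of a group in normalized counts, taken from the deposited table, and values per library were not used here. No spread between replicates, no interval and no test can therefore be given for any member, and the depth per library is unknown. The same means chose the members, so that each member lies below the control by construction and its ratios are a description with no support attached. Within the table of changed genes 44.6% of transcripts had a lower mean than the control at 3 h, 19.3% at 24 h and 8.96% at both times. The 45 transcripts below at both times were 20.1% of the 224 below at 3 h and 46.4% of the 97 below at 24 h. Each transcript in that table differed by at least 2.0-fold between any pair of groups, so a member that was below control at both times had to be at least 4-fold below it at one of them.

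Tissue held in bulk does not separate a loss of cells of a type from a loss of RNA per cell, and those cannot be told apart for any gene below. For the tissue label, none of the 10 listed smooth muscle markers and none of the 12 enteric neuron markers stood in either deposited table. Myl9, the regulatory light chain of smooth muscle myosin and not on that list, had means of 2414, 1963 and 1291 in the gliosis table, so the mean of this muscle gene was high in all groups and lower after IM than in Control. Means of markers of other cells also differed between the groups. Among stromal markers the fibroblast gene Dcn, 1 of 8 listed, had 506, 249 and 298, and Gja1, 1 of 4 listed for interstitial cells of Cajal, had 161, 110 and 134. Dcn was 2.04-fold and 1.70-fold below control and Gja1 1.45-fold and 1.20-fold. Another Dcn transcript was 2.26-fold and 2.32-fold below control. Dcn and Gja1 were read from the gliosis table, which was not selected on fold. The at least 4-fold deficit of every member at 1 time follows from selection, so the sizes are not compared. The 4 listed neutrophil markers of 8 had summed means of 3.8 in Control, 17.3 at 3 h and 239 at 24 h, and the 6 listed macrophage and monocyte markers of 12 had 29.4, 37.3 and 240. At 3 h these sums hide opposite directions, since Csf1r had 20.6 in Control and 7.52 at 3 h and Mmp9 had 3.03 and 1.42, while the other listed markers of either type were above control. The 5 listed epithelial markers of 15 were all above control at 3 h and below it at 24 h, with summed means of 224, 485 and 63.4. The part of these cell types in the values of the members was not tested.

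The members were low in counts. Their totals over all 9 libraries had a median of 33.0 normalized counts, against 49.5 in the other 463 transcripts of the table. Their Control means, the highest of the 3 groups by the rule, ran from 3.43 to 68.0. The median Control mean was 7.49, against 2.3 in the other 463 transcripts. The lower totals thus did not go with lower means in Control. Of the 39 members 11 had a Control mean under 5, 21 had one from 5 to under 15, and 7 had one of at least 15. A total over all 9 libraries of at least 90 normalized counts was reached by 6 members, namely Thrsp, Wnt5a, Foxp2, Gpsm2 and both transcripts of Dgkb. In 18 members the mean was under 1 in a group, in 12 of them at 3 h and in 6 at 24 h. Their ratios rest on a few counts per group.

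Against the Control mean, the median member stood at 25.0% at 3 h (range 9.12% to 49.7%) and at 23.4% at 24 h (range 5.31% to 50.0%). The median log2 ratio of the members was −2.0 at 3 h and −2.10 at 24 h, and that of all 502 transcripts was 1.09 and 1.38. The rule fixed the sign of the members' ratios in advance. The members' medians mix both time courses. The 19 transcripts lowest at 3 h had a median of 15.2% of the Control mean at 3 h and 42.4% at 24 h, so that their means at 24 h had regained between 19.5% and 42.2% of the deficit seen at 3 h (median 31.6%). The 20 transcripts lowest at 24 h had a median of 45.0% at 3 h and 16.8% at 24 h, and their mean at 24 h was 2.02-fold to 8.49-fold lower than at 3 h (median 2.44-fold).

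**Figure D1:**
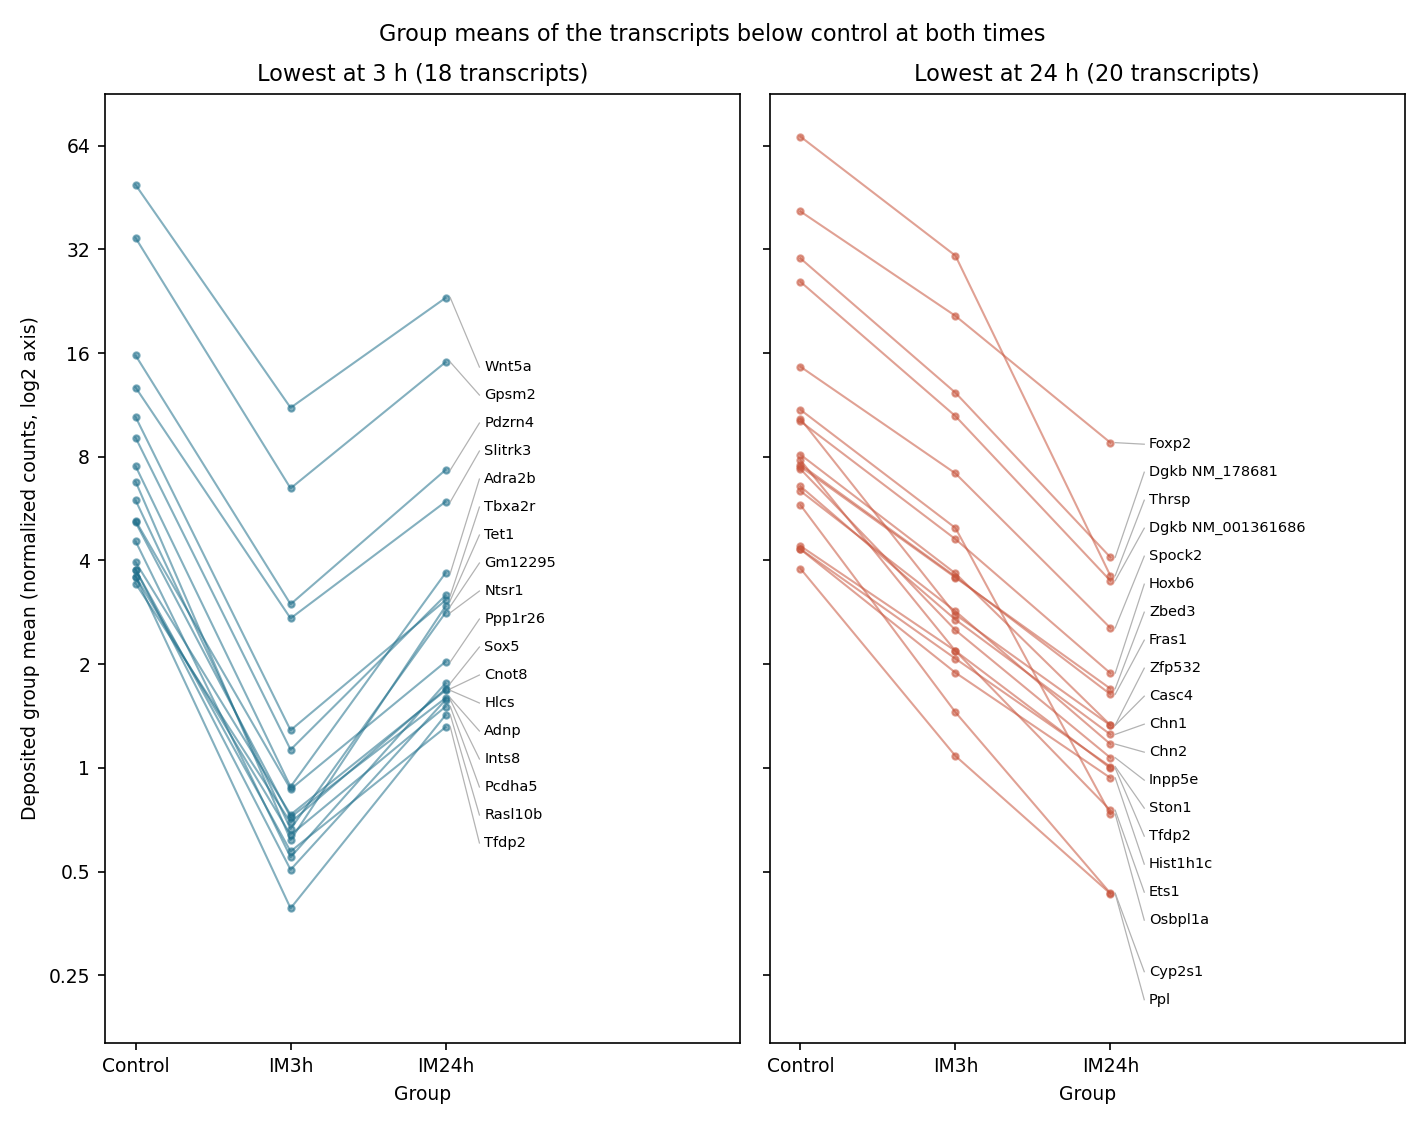
Deposited group means (normalized counts, log2 axis) of the members named in the text in Control, IM3h and IM24h, with 1 line per transcript and no error bars, since the file gives 1 mean per group. The 18 transcripts lowest at 3 h (left) turn back upward by 24 h without reaching their control mean, and the 20 lowest at 24 h (right) go down in both steps.

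At the border of the rule, Foxp2 had an IM3h mean at 49.7% of control and Ets1 one at 49.6%. The nearest transcripts outside it lay far from that edge. Klhl5, Col5a2 and Cops7a had 48.2%, 48.5% and 49.4% of the Control mean at 3 h, and each had 200% of it at 24 h. No transcript of the table could lie between 50% and 200% in either comparison with the control, so the rule did not separate near neighbours.

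**Figure D2:**
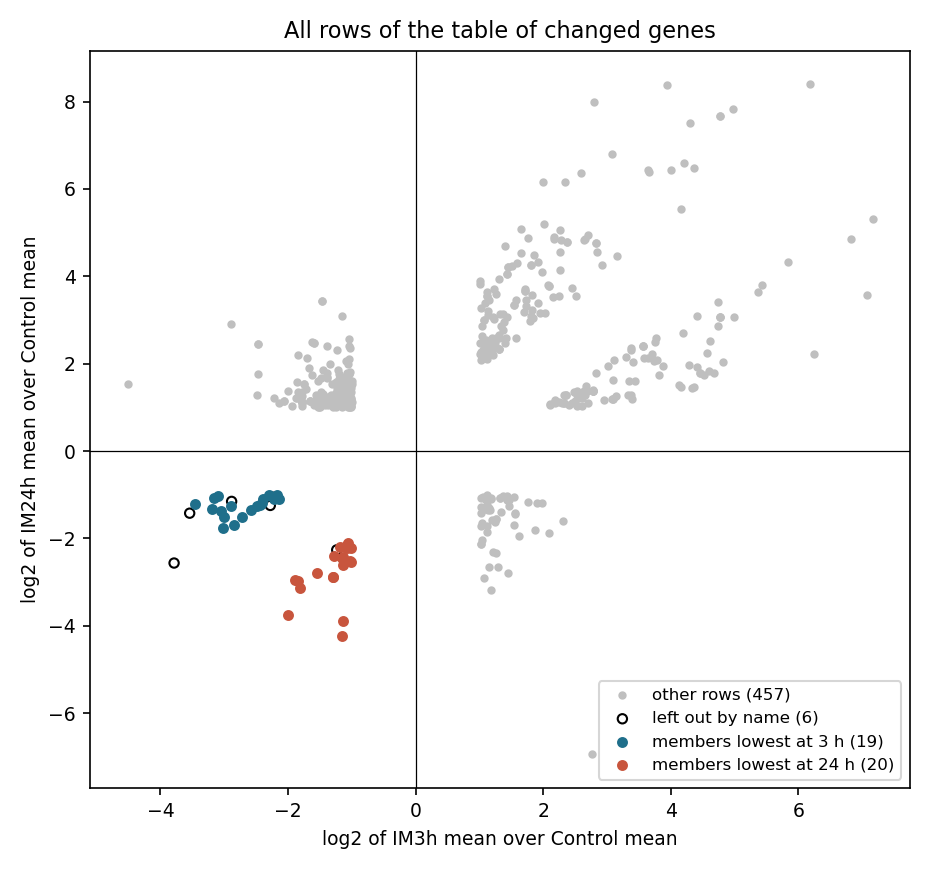
Log2 ratio of the IM3h mean (x axis) and of the IM24h mean (y axis) over the Control mean for the 502 transcripts listed as changed. The members fill the lower left of the plot in 2 groups, 19 lowest at 3 h and 20 lowest at 24 h, and the empty bands around 0 and along the diagonal show the 2.0-fold selection of the table.

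The receptor genes shared 1 time course. G protein-coupled receptors pass signals of transmitters and hormones to the muscle and nerve cells of the gut wall, and all 3 that were members had their lowest mean at 3 h. Ntsr1 (NM_018766) encodes the high-affinity receptor of neurotensin, a gut peptide that modulates motility. Its mean was 5.98 in Control, 0.665 at 3 h and 2.82 at 24 h, 8.99-fold and 2.12-fold below control. Adra2b (NM_009633), the gene of an alpha-2 adrenergic receptor for noradrenaline, had means of 7.51, 0.881 and 3.68, which were 8.52-fold and 2.04-fold below control. Tbxa2r (NM_001277265), the gene of the thromboxane A2 receptor, through which thromboxane contracts smooth muscle, had means of 9.09, 1.13 and 3.17, or 8.05-fold and 2.87-fold below control. The 3 receptors thus kept 11.1% to 12.4% of their control mean at 3 h and 34.9% to 49.0% of it at 24 h. Adra2b regained more of its deficit by 24 h than any other member lowest at 3 h, 42.2%, with Ntsr1 next at 40.6% and Tbxa2r at 25.6%. Of 38 receptor genes for agonists of smooth muscle, 4 were in the tables and all were below control at both times, these 3 and Adrb3, a beta adrenergic receptor gene that was left out of the set by name. Over the whole table of changed genes 8.96% of transcripts were below at both times. The list was written with earlier results known and all 4 met the rule, so their shared direction is no result about these receptors. Muscarinic, tachykinin and prostaglandin receptor genes of that list stood in neither table, so no value is given for them.

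Diacylglycerol is a lipid messenger made when receptors activate phospholipase C. Diacylglycerol kinases remove it by phosphorylation, and the chimaerins, which switch off the small GTPase Rac, bind it through a C1 domain. Dgkb, the beta isoform of the kinases, was represented by a pair of transcripts. NM_178681 had means of 30.1 in Control, 12.3 at 3 h and 4.09 at 24 h, and NM_001361686 had 25.8, 10.5 and 3.49. Both gave the same folds of 2.45 at 3 h and 7.37 at 24 h below control, so reads may have been shared between them and they count as 1 observation of the gene. The sum of both was 55.9, 22.8 and 7.58 normalized counts, 40.7% and 13.6% of control. Chn1 (NM_001166604), the alpha-chimaerin gene, had means of 6.57, 2.69 and 1.25, 2.44-fold and 5.25-fold below control. Chn2 (NM_001163640), the beta-chimaerin gene, had 6.36, 2.85 and 1.17, 2.23-fold and 5.43-fold below control. The 3 genes kept between 40.7% and 44.8% of control at 3 h and between 13.6% and 19.0% at 24 h, near the medians of 45.0% and 16.8% over all 20 members lowest at 24 h. They were the only 3 of 35 listed genes of diacylglycerol kinases, C1-domain effectors and phospholipases C in the tables, and the table's own selection on fold sets what could be counted.

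Other signalling genes lay on either side. Gpsm2 (NM_029522), which binds the inhibitory G protein alpha subunit and orients the mitotic spindle, had means of 34.5, 6.48 and 15.1, 5.33-fold below control at 3 h and 2.29-fold at 24 h. Rasl10b (NM_001361567), a Ras-like small GTPase gene, had 3.59, 0.391 and 1.42, and its 9.19-fold deficit at 3 h rests on the lowest group mean among the members. Ppp1r26 (NM_001005420), a regulatory subunit gene of protein phosphatase 1, had 5.22, 0.867 and 2.03. Inpp5e (NM_001290437), a phosphoinositide phosphatase of the primary cilium, went the other way in time with 7.37, 2.51 and 1.07, 2.93-fold and 6.88-fold below control. Of the 8 transcripts in this signalling group 3 were lowest at 3 h and 5 at 24 h.

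Wnt5a, a secreted ligand that signals mostly without beta-catenin and is needed for elongation of the embryonic mouse gut, was among the members with the most counts. Its transcript NM_001256224 had means of 49.2 in Control, 11.1 at 3 h and 23.1 at 24 h, 4.43-fold and 2.13-fold below control. It had regained 31.6% of its deficit by 24 h. The other gene of this group, Zbed3 (NM_028106), encodes a protein that binds Axin, a scaffold of beta-catenin breakdown. Zbed3 had means of 7.49, 3.57 and 1.70, 2.10-fold and 4.41-fold below control, with its lowest mean at 24 h. No other gene among the 34 listed for Wnt5a signalling, its Ror and Frizzled receptors and planar polarity genes included, was in the tables.

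Among the roles given to the members, transcription and chromatin formed the group with the most transcripts, 10 of 9 genes. Of these, 4 transcripts were lowest at 3 h and 6 at 24 h. Roles were given to members only, so the share of such genes in the rest of the table is not known here. Tet1 (NM_001253857), which oxidizes methylated cytosine, had means of 10.4, 1.29 and 3.07, 8.11-fold and 3.40-fold below control. Sox5 (NM_001347506), an HMG-box factor, had 4.55, 0.550 and 1.76, 8.26-fold and 2.58-fold below. Adnp (NM_009628), a homeobox and zinc finger protein gene, had 5.16, 0.719 and 1.59, 7.17-fold and 3.23-fold below. Tet1 and Adnp had come back the least of the members lowest at 3 h, by 19.5% and 19.7% of the deficit. Of 16 genes of DNA methylation and demethylation Tet1 and Gadd45b were in the tables, and Gadd45b, a stress-induced gene, lay above control with 4.71, 96.7 and 13.1.

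Foxp2, a forkhead repressor, was the member of this group with the most counts. Its transcript NM_053242 had means of 41.2, 20.5 and 8.79, 2.01-fold and 4.69-fold below control. Hoxb6 (NM_008269), a homeobox gene of regional identity, had 10.1, 4.61 and 1.88. Ets1 (NM_011808), an ETS-family factor that is abundant in lymphocytes and also made by endothelium and fibroblasts, had 4.41, 2.19 and 0.753. The other 7 of 8 lymphocyte markers stood in neither table. Hoxb6 and Ets1 were near the middle of the 24 h course, at 18.6% and 17.1% of control by then. The zinc finger gene Zfp532 (NM_001361053) had 8.11, 3.67 and 1.33. Hist1h1c (NM_015786), named H1f2 in RefSeq, is a linker histone gene and had 4.31, 1.89 and 0.935. Messages of replication-dependent histones mostly lack a poly(A) tail, so a kit primed on poly(A) reads only the minority that carry one. Foxp2, Sox5, Hoxb6 and Ets1 were the 4 of 37 listed Sox, Fox, Hox and related factors in the tables, and all 4 were members, against 8.96% of the changed transcripts below control at both times. That list was written with the members known, so the count does not describe these factor families.

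Tfdp2 encodes a DP subunit, the partner with which E2F factors bind cell cycle genes, and its transcripts stood on both sides of the split in time. NM_001184706 had means of 7.82, 2.19 and 0.998 and was lowest at 24 h, whereas NM_001184710 had 3.76, 0.572 and 1.31 and was lowest at 3 h. Summed, these 2 of 6 curated transcripts had 11.6, 2.76 and 2.31 normalized counts, 23.8% and 19.9% of control, and the gene's total is not known from them. In the reference transcripts the last 100 bases of one lie within the other, so 3' reads there could be given to either. None of the 17 listed E2F, DP and pocket protein genes other than Tfdp2 was in the tables.

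Osbpl1a had 1 transcript below control and another above it. The gene encodes an oxysterol-binding protein that links late endosomes to other membranes. Its coding transcript NM_001252491 had means of 11.0 in Control, 4.97 at 3 h and 0.734 at 24 h, 2.20-fold and 14.9-fold below control. A noncoding transcript of the same gene, NR_045524, is no member and had 0.590, 5.23 and 13.1, 8.87-fold and 22.3-fold above control. The sum of both was 11.5, 10.2 and 13.9, 88.4% and 120% of control, so these 2 transcripts together were not low at either time as the coding one was. RefSeq lists 7 curated transcripts of the gene, and the gene's total is not known from 2 of them. Of the 49 genes with more than 1 transcript in the table of changed genes Osbpl1a alone had transcripts on opposite sides of control. Here too the last 100 bases of one reference transcript lie within the other, and the assignment of reads between them was not tested.

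**Figure D3:**
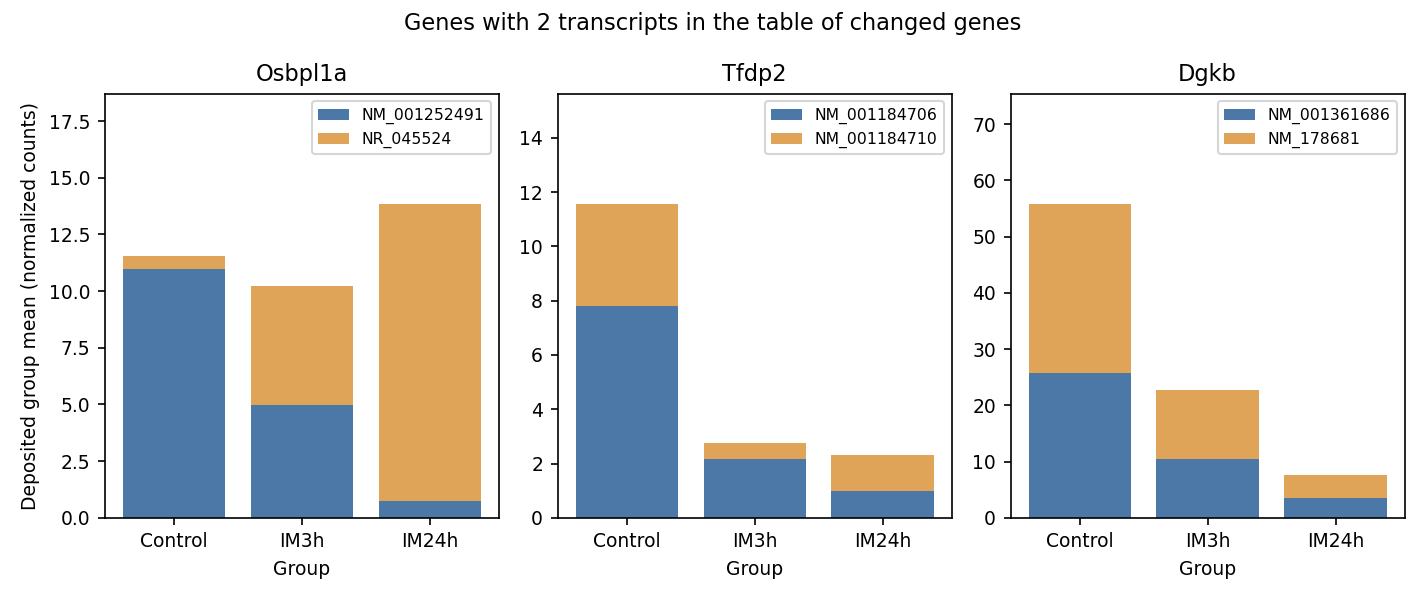
Deposited group means (normalized counts, stacked bars from 0) of the transcripts of Osbpl1a, Tfdp2 and Dgkb in each group. The summed height of Osbpl1a stays near its control value of 11.5 while the share of the coding transcript shrinks, whereas the sums of Tfdp2 and Dgkb are below control at both times.

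How far single transcripts can be told apart bears on the other members as well. In RefSeq 24 member transcripts of 22 genes had more than 1 curated transcript. Of 17 members whose end could be compared with that of another curated transcript of the gene, 6 shared the last 100 bases with at least 1 and 11 with none. Only identical ends were counted. Tfdp2 NM_001184706 is among the 11 although the end of one Tfdp2 transcript lies within the other. A place among the 11 thus does not mean that 3' reads can be separated. Adnp, Chn1, Tbxa2r and Zbed3 were among the 6 that share an end, so their values may include reads of sister transcripts. Pcdha5 belongs to a gene cluster whose members end in common exons, which 3' reads cannot separate.

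Genes of adhesion, matrix and junctions gave 5 members, 2 lowest at 3 h and 3 at 24 h. Slitrk3 (NM_001357851), a membrane protein gene of inhibitory synapses, had means of 12.7, 2.72 and 5.92, 4.68-fold and 2.15-fold below control. Pcdha5 (NM_009959), a protocadherin gene, had 3.59, 0.639 and 1.51. Ppl (NM_008909), the gene of periplakin, which ties intermediate filaments to desmosomes, had 3.79, 1.08 and 0.432, 3.50-fold and 8.78-fold below control. The matrix genes of the group, Spock2 and Fras1, were lowest at 24 h, as Ppl was. Spock2 (NM_052994), a secreted proteoglycan gene, had 14.6, 7.16 and 2.55, 2.04-fold and 5.73-fold below control. Fras1 (NM_175473), a basement membrane protein gene, had 7.59, 3.59 and 1.64.

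Thrsp had the largest deficit of any member at 24 h. It encodes Spot14, a thyroid hormone responsive protein of fatty acid synthesis that is abundant in fat and liver. Its means were 68.0 in Control, 30.7 at 3 h and 3.61 at 24 h, 2.22-fold and 18.8-fold below control, and its total of 307 normalized counts was the highest of the set. Among 9 adipocyte markers Thrsp and Adrb3 were the ones in the tables, with summed means of 99.6, 35.0 and 17.8, while Adipoq, Plin1, Lep and 4 others stood in neither. The sum hides opposite courses after 3 h, since Adrb3 had 31.6, 4.27 and 14.2 and rose by 24 h while Thrsp fell. A part of attached fat in these values was not tested. Cyp2s1 (NM_028775), a cytochrome P450 gene, had 5.79, 1.45 and 0.433, 3.99-fold and 13.4-fold below control. Hlcs (NM_139145), the gene of the enzyme that attaches biotin to carboxylases, was lowest at 3 h with 3.96, 0.731 and 1.68.

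The member transcripts of membrane traffic genes were all lowest at 24 h, although the 2 Osbpl1a transcripts summed to 120% of control at that time. Casc4 (NM_177054), named Golm2 in RefSeq and encoding a Golgi membrane protein, had 10.3, 2.79 and 1.33, 3.70-fold and 7.75-fold below control. Ston1 (NM_029858), an endocytic adaptor gene, had 4.32, 2.08 and 1.01, and its 4.28-fold deficit at 24 h was the smallest among the members lowest at that time. The genes of RNA end processing were both lowest at 3 h. Ints8 (NM_001159595), a subunit gene of the Integrator complex that cleaves small nuclear RNA, had 3.76, 0.506 and 1.58, 7.43-fold and 2.39-fold below control. Cnot8 (NM_026949), a deadenylase subunit gene of the CCR4-NOT complex, had 3.43, 0.694 and 1.70, 4.94-fold and 2.02-fold below control.

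Among the remaining members Gm12295 (NR_040280), the single noncoding RNA of the set, had the largest deficit of the set at 3 h without a pseudocount. Its means were 6.77, 0.618 and 2.95, 11.0-fold and 2.30-fold below control, and no function is given for it in the sources used here. With a pseudocount of 1 its log2 ratio at 3 h went from −3.45 to −2.26, and the deficit of Tet1 was larger (−2.32). Pdzrn4 (NM_001164593), a gene with PDZ and RING domains, had 15.7, 2.99 and 7.33, 5.27-fold and 2.15-fold below control. Gm12295 and Pdzrn4 were both lowest at 3 h.

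**Figure D4:**
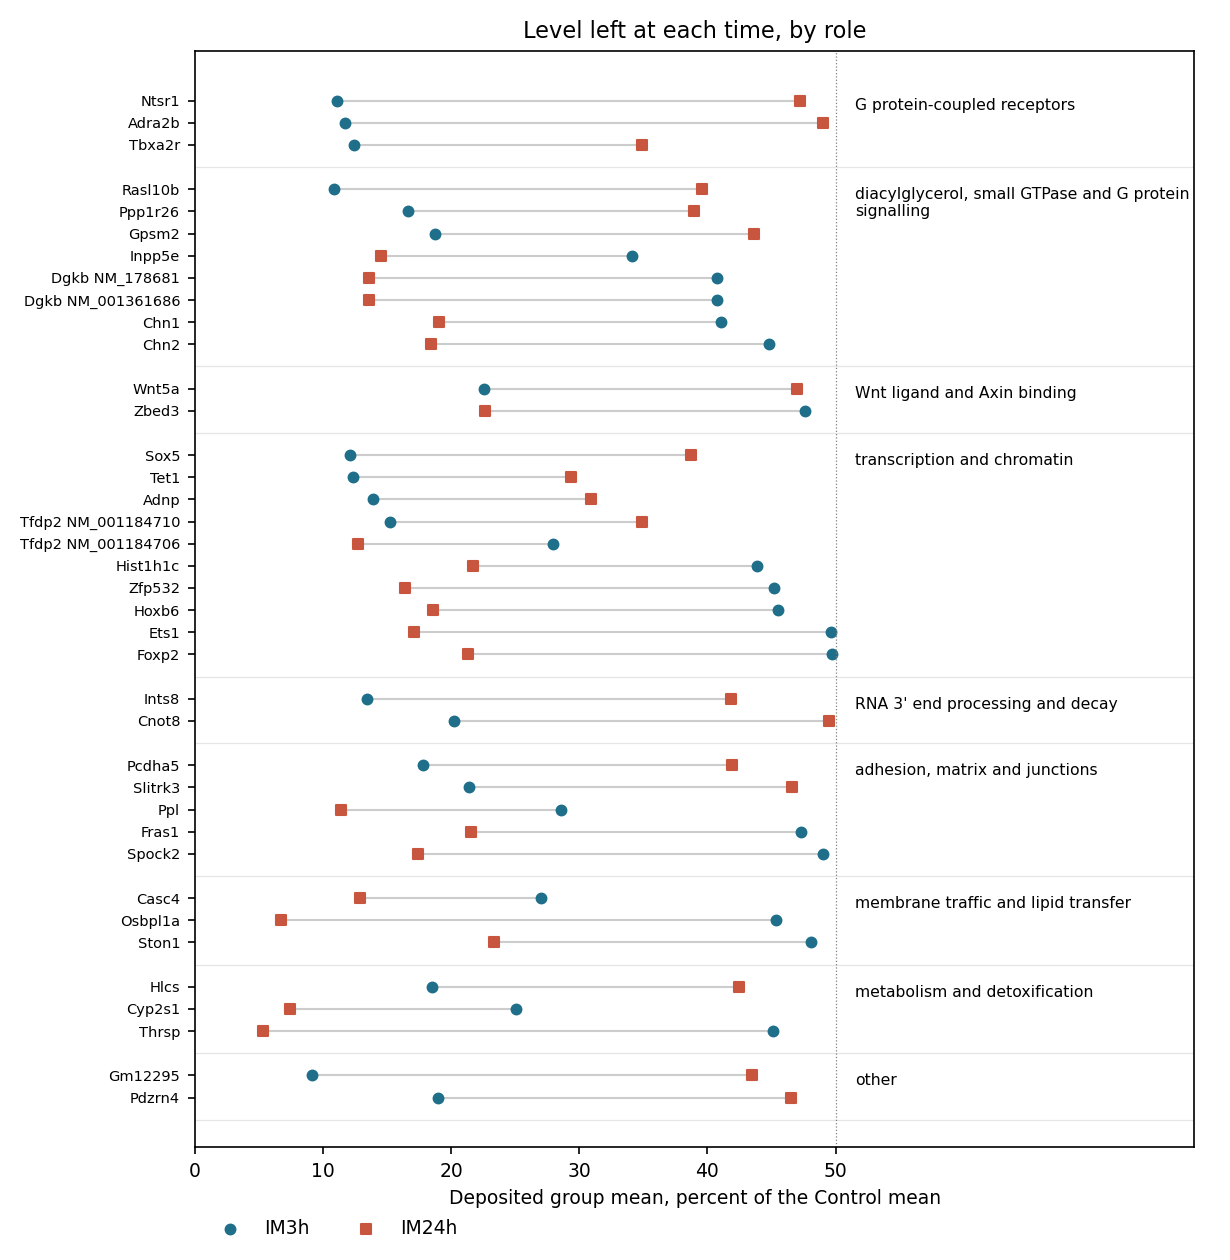
Deposited group mean of each member named in the text at 3 h (circles) and at 24 h (squares) as a percent of its Control mean, grouped by role, with a dotted line at 50%. The G protein-coupled receptor and RNA 3' end genes have their circle on the left, near 11.1% to 20.3%, and Dgkb, Chn1, Chn2 and the traffic genes have their square on the left.

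Start-site sequence was examined for what the members share outside the measured values. RefSeq promoters of 300 bases (250 before to 50 after a start, GRCm38.p6) were found for 25 of the 37 genes, 39 promoters in all. Both strands were searched for each motif. The CCAAT box (CCAAT) occurred in 35.9% of the member promoters, 36.2% of 414 promoters of other genes in the table and 37.4% of all 32851 promoters. The GC box (GGGCGG) occurred in 41.0%, 49.8% and 35.7%, and the ETS core (CGGAAGT) in 7.69%, 6.52% and 6.42%. The TATA box (TATAAA) occurred in 1 of 39 member promoters (2.56%), against 11.4% and 13.6%, and the E-box (CACGTG) in 2.56%, against 10.9% and 7.15%. The cAMP response element (TGACGTCA) and the AP-1 site, searched by name, occurred in none of the 39, against 4.83% and 7.49% of the other genes of the table and 1.79% and 5.20% of all promoters. The CArG box, the motif of serum response factor, was searched by name and found in Ston1 alone (2.56%, against 1.21% and 1.63%). Member promoters held a median of 10 CpG, those of members lowest at 3 h 17 and those of members lowest at 24 h 9, where all promoters held 7 and the other genes of the table had a median of 15. The motifs can overlap, promoters of the same gene share sequence, and no test was made.

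The following stretches show the CCAAT box in 3 members with contrasting time courses, together with the CArG box of Ston1. Each reads 5′ to 3′ on the strand of its gene, with the motif in capitals, and ATTGG is the CCAAT box read on the opposite strand.
Thrsp, 52 bases before the start, minus strand of chr7:97417586-97417615: gggctgtgttgctCCAATggttgggctttg
Thrsp, 79 bases before the start, minus strand of chr7:97417613-97417642: accaaacgctgggATTGGctcaaaacaggg
Gpsm2, 67 bases before the start, minus strand of chr3:108722350-108722379: ccccaccggtgccATTGGccggtccaaaaa
Adra2b, 32 bases before the start, plus strand of chr2:127363134-127363163: ccagctcccgcccCCAATctcctccctcct
Ston1, 74 bases before the start, plus strand of chr17:88626471-88626500: tctgagagttCCTTATTTGGgagggcagcc
The first base of each motif is at the distance given. Thrsp, lowest at 24 h, thus carries the motif on both strands, while Gpsm2 and Adra2b, lowest at 3 h, carry it once in the promoters shown. Chn1, Chn2, Hist1h1c, Inpp5e, Ston1 and Zbed3 were also lowest at 24 h and had it listed once each. The genes shown therefore do not tie the number of matches to a time course. A motif here is a match of letters and not a site shown to be bound.

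The gliosis table, a list that the study assembled without a selection on fold, was searched by the same rule. Of its 155 transcripts 40.6% were below control at 3 h, 22.6% at 24 h and 18.7% at both times, and 1.94%, or 3 transcripts, were at least 2-fold below at both. Of these 3 Wnt5a is a member, and the others were a transcript of the collagen-binding proteoglycan Dcn and one of the growth factor Hgf. Dcn NM_001190451 had means of 102, 45.2 and 44.0, and Hgf NM_001289460 had 4.84, 2.0 and 2.26. Both were nearly level between 3 h and 24 h, a course that the table of changed genes cannot hold, because it lists only transcripts that differed 2.0-fold between the times as well. Absence from the 39 members therefore does not show that a gene was at its control level.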

How the data were processed

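The authors made 3' RNA-Seq libraries (QuantSeq) from the ME and deposited 1 least squares mean per group and transcript, with a total, as an expression signal in normalized counts. Partek is named, with no version, in the submitters' processing notes. The aligner, genome build, annotation and normalization are not given in the sources used here. The deposited total was 3 times the summed group means of a transcript throughout. Columns of the authors' own comparisons (p-values, step-up FDR, ratios and fold changes) and their gene ontology table were not used.

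From the group means, ratios, percentages and log2 ratios without a pseudocount were computed in Python 3.11.15 with pandas 2.3.3. No test was made. Every member is named with its means, except 1 that is counted but not reported here, other transcripts of its gene stand beside it, and genes of the lists found in the tables are counted by their transcript with the largest total. The members and lists were chosen with earlier results of these data known. All 39 accessions matched RefSeq (GRCm38.p6), 2 of them under another symbol. Of the 12 genes without a promoter entry, those named here are Ets1, Foxp2, Fras1, Hoxb6, Ints8, Osbpl1a, Pcdha5, Ppl, Rasl10b, Wnt5a and Zfp532. Transcript ends came from GENCODE M21, where 35 members were matched. Alternatives were pseudocounts of 1 and 0.5, minimum totals of 30 and 90, 1 transcript per gene, the 6 left-out genes put back, and the gliosis table.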

Additional observations from a re-analysis of the deposited data

How the results depend on the processing

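No result had a test, and a value was counted as moved when it changed by over 1.5 times. The members' median log2 ratio of IM24h over Control was −2.10 and became −1.46 with a pseudocount of 1. Of the 39 members, 15 moved at 3 h and 12 at 24 h with that pseudocount, and 9 and 3 with 0.5. A pseudocount added to both means cannot change the sign of a ratio, so the signs carry no information here. Within the members lowest at 3 h, an alternative chosen after seeing the data, the median at 3 h was −2.72 and became −1.84 with a pseudocount of 1. A total of at least 90 left 6 transcripts (2 lowest at 3 h and 4 at 24 h) with a median log2 ratio of −1.30 at 3 h, against −2.0, and a total of at least 30 left 24, of which 9 were lowest at 3 h. With the 6 left-out genes put back, 24 transcripts were lowest at 3 h and 21 at 24 h, and the median log2 ratio of IM24h over IM3h turned from −1.01 to 1.06, since it lies between the groups of both time courses. One transcript per gene gave 18 and 19. No paired analysis was possible because only 1 mean per group was used and replicate numbers follow accession order. Leaving out each replicate was not run for the same reason, so whether 1 library sets a mean is not known here. Totals per transcript limit precision most where a group mean is under 1.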

Other observations

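A total of 29 transcripts of 20 genes in the gliosis table were below control at both times, most of them by less than 2-fold at one time or both. C3, the central complement component, had means of 175 in Control, 27.3 at 3 h and 95.4 at 24 h, 6.42-fold and 1.84-fold below control. The neural and adhesion genes among these 29 transcripts were closer to control than C3 at 3 h. At 24 h they lay on either side of C3. Nfasc was 1.51-fold, Jam2 1.18-fold and Nav2 1.08-fold below control, nearer to it than C3. Most transcripts of Cntn1, Epha4 and Neto2 were further from control than C3 at 24 h. The contactin gene Cntn1 had 4 transcripts, all 1.59-fold below control at 3 h and 1.75-fold to 2.38-fold at 24 h, and Epha4, an ephrin receptor gene, had 40.7, 34.1 and 19.0. Neto2, an accessory subunit gene of kainate receptors, was near control at 3 h (2.37 and 2.32) and at 0.419 at 24 h.

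Genes of elastic fibres and contraction were also in that group. Ltbp4 (NM_001113549), which binds latent TGF-beta in the matrix, had 28.1, 14.9 and 13.5, and Fbln5 (NM_001361987), an elastic fibre gene, had 6.56, 3.21 and 5.54. Myl9, the regulatory light chain of smooth muscle myosin, had 2414, 1963 and 1291, 1.23-fold and 1.87-fold below control. Gja1, the connexin 43 gene, had 161, 110 and 134. These means carry no error here and were not tested.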
